A study of Homo sapiens with 20 samples.

Results

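Arginine and polyamine metabolism in wounded keratinocytes was described here through 10 genes, ARG2, ASS1, ASL, OAT, ODC1, AZIN1, AMD1, SRM, SMS and SAT1. They formed a list of names whose rule used no measured value, although the list was drawn up with earlier results of these data known, and all 10 were found by Ensembl identifier among the 57500 genes counted in each of 20 libraries. The cells were NTERT, a human keratinocyte line immortalized with telomerase. WT cells and GCN2KO cells, a CRISPR/Cas9-edited pool rather than 1 clone whose guides were aimed at exon 2 or exon 12 of the GCN2 gene (EIF2AK4), were left unwounded or were given high-density wounding (HDW), a grid of scratches drawn through a confluent sheet. In a figure legend of the study, WT stands for cells given a control guide RNA, which is not restated for the sequenced cells. By the study's methods, sheets were kept for 36 h in serum and calcium before HDW, while the deposited labels name only low-calcium medium, and total RNA was taken 6 h after wounding. Each of the 4 groups formed by genotype and wounding had 5 replicates. In bulk RNA, fewer cells of a type and less RNA per cell cannot be told apart.

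Arginine is made from citrulline by argininosuccinate synthase (ASS1) and argininosuccinate lyase (ASL), and arginase (ARG2 is the mitochondrial form) splits it into urea and ornithine. Ornithine is then either turned toward glutamate and proline by ornithine aminotransferase (OAT) or decarboxylated by ornithine decarboxylase (ODC1) to putrescine, from which spermidine synthase (SRM) and spermine synthase (SMS) build the larger polyamines with aminopropyl groups that S-adenosylmethionine decarboxylase (AMD1) supplies. Antizyme inhibitor (AZIN1) shields ODC1 protein from antizyme, and SAT1 acetylates polyamines for breakdown and export. In skin the arginine and ornithine pool feeds both proliferation and the proline of new matrix, and GCN2 is the kinase that senses uncharged tRNA and phosphorylates eIF2α, after which ATF4, a bZIP factor that binds amino acid response and cAMP response type elements, is translated. In NTERT cells, however, the study saw ATF4 protein increase after wounding with or without functional GCN2.

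Of the 10 genes, 9 matched the RefSeq promoter table (GRCh38.p14). The 250 bases before the start are shown for ARG2 and ODC1, the members that were DE genes in both genotype comparisons below. They are also shown for ASS1, which like ASL and OAT was lower in GCN2KO in both. Capitals mark matches to CACGTG (E box), TGATGNAA (core of the ATF4 composite element), TGANTCA (AP-1 site), TGACG (short core of the cAMP response element) or TGACGTCA (the full element, searched after the sequences had been seen), each read on both strands.
ARG2 (chr14:67619670-67619919, plus strand): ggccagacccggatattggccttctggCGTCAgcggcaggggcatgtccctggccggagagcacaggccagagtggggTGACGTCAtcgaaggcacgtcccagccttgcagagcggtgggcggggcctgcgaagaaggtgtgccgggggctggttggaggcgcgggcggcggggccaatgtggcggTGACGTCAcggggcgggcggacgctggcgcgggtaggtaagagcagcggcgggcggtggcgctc
ODC1 (chr2:10448328-10448577, minus strand): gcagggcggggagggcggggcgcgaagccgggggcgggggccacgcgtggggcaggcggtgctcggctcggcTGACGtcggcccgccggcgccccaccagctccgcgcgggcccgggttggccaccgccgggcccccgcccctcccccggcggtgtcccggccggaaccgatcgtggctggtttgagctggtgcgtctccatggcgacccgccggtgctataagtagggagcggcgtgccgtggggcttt
ASS1 (chr9:130444711-130444960, plus strand): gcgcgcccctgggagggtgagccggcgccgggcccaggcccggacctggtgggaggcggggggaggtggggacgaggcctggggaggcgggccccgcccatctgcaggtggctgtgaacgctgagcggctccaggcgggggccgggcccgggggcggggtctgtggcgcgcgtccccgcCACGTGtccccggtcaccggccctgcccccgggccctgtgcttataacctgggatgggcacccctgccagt
The ARG2 window held the full element from −172 to −165 and again from −64 to −57, each containing overlapping short cores on the opposite strands, and 1 further short core from −223 to −219, where −1 is the base next to the start. In ODC1 a single short core lay from −178 to −174, and in ASS1 an E box lay from −71 to −66. Short cores also lay before ASL, OAT, SMS and AMD1, an E box lay before SRM, and none of these letters was found before SAT1. Among all 35116 windows of the same length, 21.2% held the short core, 1.65% the full element, 6.34% the E box, 3.14% the ATF4 composite core and 6.57% the AP-1 site. Neither of the last 2 motifs was found before any of the 9 members. A match describes letters and is not a binding site.

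Library totals ran from 14083504 to 34611570 counts, with the lowest median, 23685751, in WT unwounded. The targeted transcript EIF2AK4 had normalized read counts (counts scaled to a common library size) of 806 to 962 in the 10 GCN2KO libraries and 3980.2 to 4555 in the 10 WT libraries, a log2 fold change of −2.28 unwounded and −2.27 after HDW. All 8 keratinocyte markers were detected. They summed to 16280 to 22360 TPM (a level per exonic length, scaled to a fixed total in each library) over the 20 libraries. KRT5 led the sum, with unwounded means of 8188 TPM in WT and 10926 TPM in GCN2KO. KRT14 had 4065 and 2136 TPM, and COL17A1 had 1718 and 635 TPM. At an adjusted p of at most 0.05 in edgeR, 2 of the 8 were higher and 5 lower in GCN2KO, both unwounded and after HDW. Of all genes tested, 33.4% were higher and 33.1% lower unwounded, and 35.9% and 35.8% after HDW. Fibroblast markers summed to 9.23 to 17.1 TPM, nearly all of it COL1A1, and PDGFRA was at 0 to 4 counts. Melanocyte markers summed to 3.91 to 5.46 TPM in WT and 8.71 to 14.9 TPM in GCN2KO, led by MITF in all groups but WT unwounded, where PMEL was as high, with TYR and SOX10 at 0. Immune markers summed to 75.7 to 163 TPM in WT and 39.3 to 105.7 TPM in GCN2KO, mostly CD14, with CD1A and CD207 at 0 and PTPRC at 0 to 2 counts. Differentiated keratinocyte markers, 7 of 8 matched, summed to 830.6 to 1688 TPM in WT and 1505 to 2556 TPM in GCN2KO. Of their group means in unwounded cells, IVL (210 TPM in WT and 709 TPM in GCN2KO), SPRR1B, SPRR1A and KRT10 were higher in GCN2KO and KRT1, FLG and TGM1 (134 and 107 TPM) lower, and after HDW SPRR1B had 895 TPM in WT and 901 TPM in GCN2KO. The part of these marker differences in the results below was not tested. GCN2KO unwounded replicate 1 and GCN2KO HDW replicate 5 stood apart in the members' own counts and were chosen for this after the data were seen. On the first principal component they lay at 41.7 and 40.9, against 55.3 to 61.9 in the other 8 GCN2KO libraries. WT libraries lay at −67.4 to −40.4. Results within GCN2KO are also given without both, which is not an independent check of the members.

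In unwounded cells, loss of GCN2 went with much higher ARG2 and ODC1, the enzymes on either side of ornithine, and with lower ASS1, ASL and OAT. All 10 genes passed the filter on low counts in every comparison. ARG2 and ODC1 were DE genes (an absolute log2 fold change of 1 or more with an adjusted p no higher than 0.05), 2 of 10 higher and 0 lower, where 8.21% of the 15348 genes tested were DE genes higher and 8.22% lower in GCN2KO. At the adjusted p alone, 7 members were higher and 3 lower, where 33.4% of all genes were higher and 33.1% lower. Their median log2 fold change was 0.31, against 0.0042 over all genes tested. After HDW, ARG2 and ODC1 were again DE genes higher and ASL was a DE gene lower, where 7.1% and 7.83% of 15855 genes were. At the adjusted p alone 4 members were higher and 4 lower, beside 35.9% and 35.8% of all genes, with a median of 0.06 against 0.0020.

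In WT cells, HDW moved every member past the adjusted p, 7 higher and 3 lower, while 26.1% of the 15348 genes were higher and 25.2% lower. In 1 fit of all 20 libraries the calls of ASS1 (−0.10, adjusted p = 0.415), OAT (adjusted p = 0.0679), SAT1 (adjusted p = 0.192), AMD1 (adjusted p = 0.153) and AZIN1 (adjusted p = 0.168) were lost, and without a filter on low counts those of ASS1 (adjusted p = 0.0835) and AZIN1 (adjusted p = 0.0736). Only ARG2 was a DE gene, higher, where 2.62% of genes were DE genes higher and 1.55% lower. In GCN2KO cells, HDW made no member a DE gene, where 0.475% of 15791 genes were DE genes higher and 0.196% lower. At the adjusted p SRM was higher and ARG2, ASS1 and AZIN1 were lower, 1 and 3 of 10, which were also the counts at an unadjusted p under 0.05, beside 11.9% of genes higher and 10.8% lower. The difference between the genotypes in the response to HDW, fitted over all 20 libraries as an interaction, was past the adjusted p for ARG2, ASL, ODC1, SRM, SMS and AZIN1, 6 lower in GCN2KO and 0 higher (7 and 0 at an unadjusted p under 0.05 in edgeR), where 12.5% of 16536 genes were lower and 11.2% higher. ARG2 was the 1 member with an interaction of 1 or more in size, where 2.15% of genes were such DE genes lower and 1.16% higher. The median interaction of the 10 members was −0.35, against −0.0090 over all genes. Without both libraries that stood apart, the same 4 members passed with HDW in GCN2KO, and ASS1 joined the 6 members for the interaction. Comparisons that use the same group share its 5 libraries, and are not separate evidence of one another. DESeq2 gave all 10 members the same calls in all 5 comparisons.

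**Figure D1:**
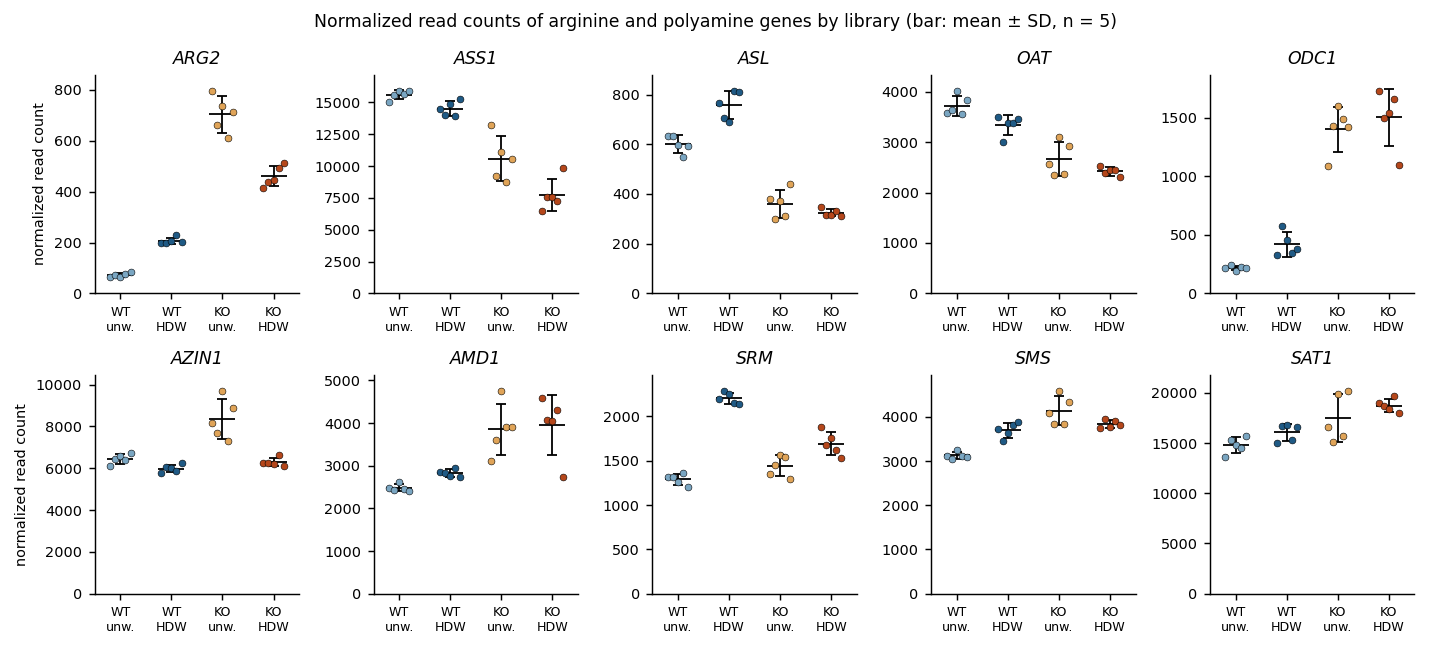
Normalized read counts (vertical axes, each from 0) of the 10 genes in each of the 20 libraries, by group (unw., unwounded; KO, GCN2KO), with the mean and SD of 5 replicates as bars. ARG2 and ODC1 sit low in WT and high in GCN2KO, ASS1, ASL and OAT sit lower in GCN2KO, and SRM is highest in WT HDW.

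**Figure D2:**
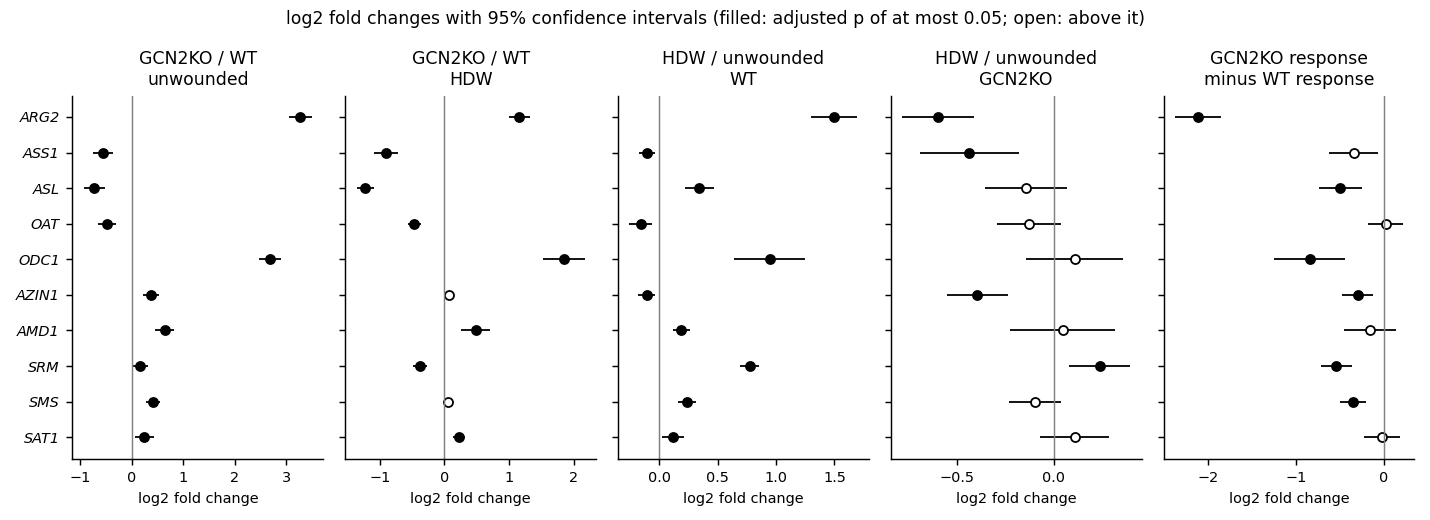
log2 fold changes (horizontal axes, scaled separately in each panel) of the 10 genes in the 5 comparisons, with 95% confidence intervals, filled where the adjusted p was at most 0.05. ARG2 runs from 3.28 between unwounded genotypes to −2.11 for the difference between the genotypes in the response to HDW.

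ARG2, which opens the route from arginine to ornithine, was the member with the largest difference between unwounded genotypes, with HDW in each genotype and in the interaction, while after HDW the genotype differences of ODC1 and ASL were larger. In WT unwounded libraries its normalized read counts were 65.6, 71.4, 64.0, 74.3 and 83.9, resting on only 33 to 87 raw counts a library. They were 196, 199, 206, 229 and 201 in WT HDW. In GCN2KO unwounded libraries they were 797, 661, 737, 609 and 715, and in GCN2KO HDW they were 415, 438, 448, 495 and 513. No 2 groups overlapped, and the order was WT unwounded, WT HDW, GCN2KO HDW, GCN2KO unwounded. The genotype difference was 9.70-fold unwounded (log2 3.28 ± 0.11 SE, adjusted p = 1.21e-12) and 2.23-fold after HDW (log2 1.16 ± 0.07, adjusted p = 9.09e-09). HDW raised ARG2 2.83-fold in WT (log2 1.499 ± 0.09, adjusted p = 5.34e-09) and lowered it in GCN2KO (log2 −0.60 ± 0.09, adjusted p = 7.45e-04), so the responses had opposite signs and differed by −2.11 ± 0.13 (adjusted p = 5.69e-11). Without GCN2KO unwounded replicate 1 and GCN2KO HDW replicate 5, the response in GCN2KO was −0.60 and the difference −2.11.

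The end of ARG2 lies over exons of VTI1B, a vesicle SNARE gene on the opposite strand, and 904 bases, 39.6% of ARG2's exonic length (chr14:67619920-67651708, plus strand), are shared. Whether counting used the strand is not given in the sources used here, so reads of the shared bases could not be assigned to either gene with certainty. VTI1B had mean normalized read counts of 2427 ± 73.8 in unwounded WT cells, 2573 ± 14.9 in WT cells after HDW, 2339 ± 52.2 in unwounded GCN2KO cells and 2077 ± 91.1 in GCN2KO cells after HDW (SD, n = 5). Between unwounded genotypes, where ARG2 differed most, VTI1B had a log2 difference of −0.05 (95% confidence interval −0.16 to 0.07, adjusted p = 0.443), and after HDW it was lower in GCN2KO (−0.31, adjusted p = 4.03e-06) while ARG2 was higher. The interaction of VTI1B was −0.26 (adjusted p = 0.00290), of the same sign as that of ARG2. For both genes, HDW libraries lay wholly above unwounded ones in WT and wholly below them in GCN2KO. VTI1B was not called with HDW in GCN2KO in the main fit. It was called lower there by DESeq2 (−0.17, adjusted p = 0.00879) and by edgeR with thinned counts (−0.20, adjusted p = 0.0294). The edgeR call was also made in 1 fit of all 20 libraries (adjusted p = 0.00332) and with DESeq2 size factors (adjusted p = 0.0416). Leaving out GCN2KO unwounded replicate 2 or GCN2KO HDW replicate 5 gave it as well. With HDW in WT, VTI1B was called higher in the main fit. That call was lost without any 1 of WT unwounded replicates 1, 3, 4 and 5 and WT HDW replicates 1, 3 and 4. The part of the shared bases in the ARG2 responses was not tested.

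ASS1 and ASL, which act in sequence to regenerate arginine, were both lower in GCN2KO. ASS1 (chr9:130444961-130501274, plus strand) had 15010.0, 15579.6, 15879, 15621 and 15916 normalized read counts in WT unwounded and 14506, 14029, 14898, 13905 and 15249.6 in WT HDW. Its counts were 13215, 9208, 11129, 8715 and 10583 in GCN2KO unwounded and 6438, 7605, 7561, 7291 and 9823 in GCN2KO HDW. Every GCN2KO library lay below every WT library, and in both GCN2KO groups the highest value belonged to the library that stood apart. ASS1 was lower in GCN2KO by a log2 of −0.56 ± 0.09 unwounded (adjusted p = 7.30e-05) and −0.91 ± 0.09 after HDW (adjusted p = 3.72e-07), and without GCN2KO HDW replicate 5 the latter was −1.01, past the fold for a DE gene. HDW lowered it by a small amount in WT (−0.11, adjusted p = 0.0147) and more in GCN2KO (−0.44, adjusted p = 0.0209), although the adjusted p of the latter was 0.0510 to 0.0526 without any 1 of GCN2KO HDW replicates 1 to 4. The interaction of ASS1 was −0.34 (adjusted p = 0.0637), and −0.35 with an adjusted p of 0.00742 without both libraries that stood apart. It also passed without GCN2KO unwounded replicate 2 (adjusted p = 0.0307) or 4 (adjusted p = 0.0251), without GCN2KO HDW replicate 5 (adjusted p = 0.00674) and without a filter on low counts (adjusted p = 0.0203). Its 14 named pseudogenes together held 0.36% as many counts as ASS1.

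ASL (chr7:66075800-66094697, plus strand) had 632, 633, 599, 548 and 592 normalized read counts in WT unwounded and 767, 707, 691, 816 and 810.4 in WT HDW. In GCN2KO it had 381, 299, 370.1, 313 and 439 unwounded and 348, 316, 317, 333 and 310.3 after HDW. The genotypes did not overlap, and WT HDW lay wholly above WT unwounded, while both GCN2KO groups overlapped. The genotype difference was −0.72 ± 0.10 unwounded (adjusted p = 6.56e-06) and −1.22 ± 0.06 after HDW (adjusted p = 1.38e-09), a level 2.33-fold lower. ASL rose with HDW in WT (0.34 ± 0.06, adjusted p = 1.86e-04), its value in GCN2KO was −0.14 (95% confidence interval −0.36 to 0.07, adjusted p = 0.302), and the responses differed by −0.50 (adjusted p = 0.00320). Of its exonic length, 9.34% is shared with a gene of the same strand.

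OAT, which takes ornithine away from polyamines, was lower in GCN2KO by a nearly equal amount in both states. Its normalized read counts were 3560.2 to 4020.2 in WT unwounded, 2995 to 3492 in WT HDW, 2349.9 to 3097 in GCN2KO unwounded and 2303 to 2530.5 in GCN2KO HDW. The log2 difference was −0.48 ± 0.08 unwounded (adjusted p = 5.96e-05) and −0.46 ± 0.05 after HDW (adjusted p = 6.04e-07). HDW lowered OAT slightly in WT (−0.16, adjusted p = 0.00798), with −0.13 in GCN2KO (adjusted p = 0.246) and an interaction of 0.02 (95% confidence interval −0.18 to 0.22, adjusted p = 0.912).

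ODC1, the first committed enzyme of polyamine synthesis, was next to ARG2 in the size of its difference between unwounded genotypes. Its normalized read counts were 219, 241, 193, 221 and 218 in WT unwounded and 326, 578, 459.9, 344 and 381 in WT HDW. They were 1085, 1429, 1599, 1484 and 1417 in GCN2KO unwounded and 1729.8, 1496, 1539, 1657 and 1099 in GCN2KO HDW. WT HDW lay wholly above WT unwounded, all GCN2KO libraries lay above all WT libraries, and the lowest value of each GCN2KO group was that of the library that stood apart. ODC1 (chr2:10439968-10448327, minus strand) was 6.46-fold higher in GCN2KO unwounded (log2 2.69 ± 0.10, adjusted p = 7.05e-12) and 3.59-fold higher after HDW (log2 1.84 ± 0.15, adjusted p = 9.03e-08). HDW raised it 1.92-fold in WT (log2 0.94 ± 0.14, adjusted p = 4.80e-05), just under the fold for a DE gene. Leaving out 1 library gave 0.80 to 1.02, lowest without WT HDW replicate 2, the highest library of its group. ODC1 reached the fold only without WT HDW replicate 1 (1.02) or 4 (1.00). In GCN2KO the value was 0.11 (95% confidence interval −0.14 to 0.36, adjusted p = 0.526), and the responses differed by −0.85 ± 0.20 (adjusted p = 0.00266), or −0.83 without both libraries that stood apart.

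AZIN1, which shields ODC1 protein, was higher in unwounded GCN2KO cells. It had 6129 to 6716 normalized read counts in unwounded WT cells, 5775 to 6238 in WT cells after HDW, 7318 to 9692 in unwounded GCN2KO cells and 6096 to 6654 in GCN2KO cells after HDW. GCN2KO unwounded lay wholly above the other 3 groups, which all overlapped one another. The genotype difference was 0.38 unwounded (adjusted p = 3.45e-04) and 0.07 after HDW (95% confidence interval −0.01 to 0.15, adjusted p = 0.0957, 0.0449 without GCN2KO HDW replicate 5 and 0.0207 with library size alone as scaling). HDW lowered AZIN1 in GCN2KO (−0.40, adjusted p = 0.00347) and by less in WT (−0.11, adjusted p = 0.0114), with a difference of −0.30 (adjusted p = 0.0124). Sequence before this gene was not analysed here.

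AMD1, the supplier of aminopropyl groups, had 2416 to 2623 normalized read counts in unwounded WT cells, 2748 to 2957 in WT cells after HDW, 3105 to 4752 in unwounded GCN2KO cells and 2743 to 4594 in GCN2KO cells after HDW. Its lowest value after HDW in GCN2KO, 2743, came from replicate 5, and the other 4 libraries of that group lay at 4059 or above. It was higher in GCN2KO by 0.64 unwounded (adjusted p = 9.34e-06) and 0.48 after HDW (adjusted p = 7.19e-04). HDW raised it in WT by 0.19 (adjusted p = 3.00e-04), the value in GCN2KO was 0.05 (adjusted p = 0.821), and the interaction of −0.15 did not pass (adjusted p = 0.473).

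SRM, the spermidine synthase, rose more with HDW in WT than any other member except ARG2 and ODC1. Its normalized read counts were 1316, 1319, 1256, 1358 and 1206 in WT unwounded and 2199, 2287, 2252, 2153 and 2138 in WT HDW. In GCN2KO they were 1356, 1452, 1571, 1546 and 1293 unwounded and 1877, 1681, 1752, 1618 and 1533 after HDW. WT HDW lay above every other library, and the unwounded genotypes overlapped. HDW raised SRM 1.71-fold in WT (log2 0.77 ± 0.04, adjusted p = 6.71e-10) and 1.18-fold in GCN2KO (log2 0.24 ± 0.07, adjusted p = 0.0324), and the responses differed by −0.54 ± 0.08 (adjusted p = 5.27e-05). The rise in GCN2KO had an adjusted p of 0.0508 to 0.0877 without any 1 of GCN2KO unwounded replicates 1 and 5 and GCN2KO HDW replicates 1 to 4, and 0.0441 without both libraries that stood apart. After HDW, SRM was lower in GCN2KO than in WT (−0.38, adjusted p = 1.23e-05), whereas unwounded it was slightly higher (0.17, adjusted p = 0.0431), a call lost without any 1 of WT unwounded replicates 1, 2, 3 and 5 and GCN2KO unwounded replicates 2, 3 and 4 (adjusted p = 0.0645 to 0.131). It was also lost with library size alone as scaling (0.13, adjusted p = 0.101), with thinned counts (adjusted p = 0.0771) and without a filter on low counts (adjusted p = 0.136).

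SMS, the spermine synthase, moved by less. It had 3049.5 to 3252 normalized read counts in unwounded WT cells, 3441 to 3871 in WT cells after HDW, 3829 to 4582 in unwounded GCN2KO cells and 3745 to 3952 in GCN2KO cells after HDW. WT unwounded lay below all other groups. SMS was higher in GCN2KO unwounded (0.41, adjusted p = 3.31e-05), its difference after HDW was 0.05 (95% confidence interval −0.03 to 0.14, adjusted p = 0.225, and 0.0497 with library size alone as scaling), and HDW raised it in WT (0.24, adjusted p = 5.07e-05). In GCN2KO the response was −0.10 (adjusted p = 0.277), and the interaction was −0.35 (adjusted p = 0.00110).

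SAT1, the acetyltransferase of polyamine breakdown, was the most abundant member per length, and none of its differences was over 0.25 in size on the log2 scale. Its normalized read counts were 13651 to 15660.2 in WT unwounded, 14986 to 16750.4 in WT HDW, 15094 to 20178 in GCN2KO unwounded and 17972 to 19691 in GCN2KO HDW. It was higher in GCN2KO by 0.25 unwounded (adjusted p = 0.0184, and 0.0574 without WT unwounded replicate 1) and by 0.22 after HDW (adjusted p = 4.77e-04). With HDW in WT it rose by 0.12 (adjusted p = 0.0336), a call lost without any 1 of WT unwounded replicates 1, 3 and 4 or WT HDW replicates 2, 3 and 5 (adjusted p = 0.0630 to 0.0950) and with library size alone as scaling (adjusted p = 0.137), and the value in GCN2KO was 0.11 (adjusted p = 0.356).

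Ratios of counts between members within a library do not depend on scaling between libraries. In 6 pairs chosen for their place in the pathway, 4 comparisons each gave 24 two-sided exact permutation tests of 5 against 5 libraries, for which the smallest p is 0.00794, and 19 passed 0.05 after Benjamini-Hochberg adjustment. ODC1 counts per AZIN1 count were 0.0339 ± 0.0032 in unwounded WT cells, 0.0697 ± 0.0165 in WT cells after HDW, 0.169 ± 0.027 in unwounded GCN2KO cells and 0.239 ± 0.035 in GCN2KO cells after HDW (SD, n = 5). All 4 of its differences passed, with log2 2.31 between unwounded genotypes, 1.79 between wounded genotypes and 1.01 with HDW in WT (exact permutation adjusted p = 0.0119 each), and 0.50 with HDW in GCN2KO (exact permutation adjusted p = 0.0317, and 0.0501 without any 1 of GCN2KO HDW replicates 2 to 4). ODC1 counts per SAT1 count set transcripts of a synthesis enzyme against those of a breakdown enzyme. They were 0.0148 ± 0.0013, 0.0259 ± 0.0054, 0.0810 ± 0.0136 and 0.0801 ± 0.0113 in the same order. The difference with HDW in GCN2KO was −0.01 (exact permutation adjusted p = 0.937).

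ARG2 counts per OAT count set transcripts of an enzyme that makes ornithine against those of an enzyme that uses it. The ratio rose from 0.0193 ± 0.0023 in WT unwounded to 0.0620 ± 0.0052 in WT HDW. It stood at 0.266 ± 0.029 in GCN2KO unwounded and 0.191 ± 0.022 in GCN2KO HDW, with exact permutation adjusted p = 0.0119 for all 4 differences. The order of the groups was that of ARG2 alone. ASS1 counts per ASL count fell with HDW in WT, from 26.0 ± 1.9 to 19.2 ± 1.6 (exact permutation adjusted p = 0.0119), while the genotype differences of 0.17 unwounded and 0.30 after HDW did not pass (exact permutation adjusted p = 0.139 and 0.0762). They passed without GCN2KO unwounded replicate 5 (exact permutation adjusted p = 0.0317) and without GCN2KO HDW replicate 1 (exact permutation adjusted p = 0.0112). With HDW in GCN2KO the difference in this ratio was −0.31 and did not pass (exact permutation adjusted p = 0.109). It passed with thinned counts (−0.41) and without GCN2KO HDW replicate 5 (−0.42, exact permutation adjusted p = 0.0201 each). Without both libraries that stood apart it was −0.35 (exact permutation adjusted p = 0.0361). Both pairs with SRM as the denominator fell with HDW in WT, by a log2 difference of −0.58 for AMD1 and −0.53 for SMS. After HDW they were higher in GCN2KO than in WT, by 0.85 and 0.44 (exact permutation adjusted p = 0.0119 each). In GCN2KO, HDW gave −0.20 and −0.33 (exact permutation adjusted p = 0.166 and 0.0224). Both were also higher in GCN2KO unwounded, by 0.46 and 0.24 (exact permutation adjusted p = 0.0119 and 0.0401). The latter was lost without any 1 of WT unwounded replicates 1, 2, 4 and 5 and GCN2KO unwounded replicates 1, 3 and 5 (exact permutation adjusted p = 0.0501 to 0.0762).

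**Figure D3:**
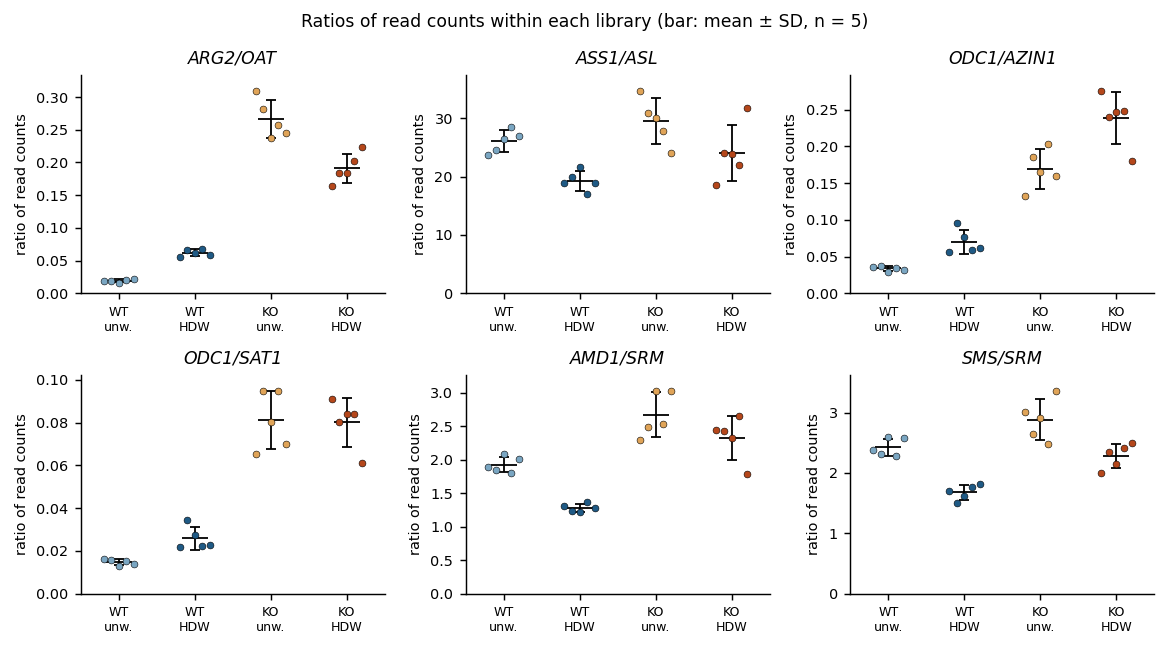
Ratio of read counts of 2 members within each library (vertical axes, each from 0) by group, with the mean and SD of 5 replicates as bars. ODC1 counts per AZIN1 count rise from 0.0339 in WT unwounded to 0.239 in GCN2KO HDW, while ODC1 counts per SAT1 count are alike in both GCN2KO groups, at 0.0810 and 0.0801.

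On the level scale, per exonic length, SAT1 was first in every group (862 to 1094 TPM as group means), ASS1 second (373 to 748 TPM) and SMS the next (212 to 265 TPM). In WT unwounded, ASL (14.4 ± 0.9 TPM), ODC1 (9.56 ± 0.79 TPM) and ARG2 (4.55 ± 0.50 TPM) closed the order. In GCN2KO unwounded, ODC1 (58.0 ± 7.6 TPM), AMD1 (51.6 ± 6.3 TPM) and ARG2 (42.1 ± 3.7 TPM) were neighbours whose libraries overlapped in sequence, and ASL (8.15 ± 1.06 TPM) was last. OAT overlapped AZIN1 in both WT groups and SRM in GCN2KO unwounded, ODC1 overlapped ASL in WT HDW and AMD1 in GCN2KO HDW, and the other neighbours in the order were separated. AMD1 and ASL have long unions of annotated exons, 10193 and 6031 bases, so their levels per length are low estimates if shorter transcripts are the ones made.

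**Figure D4:**
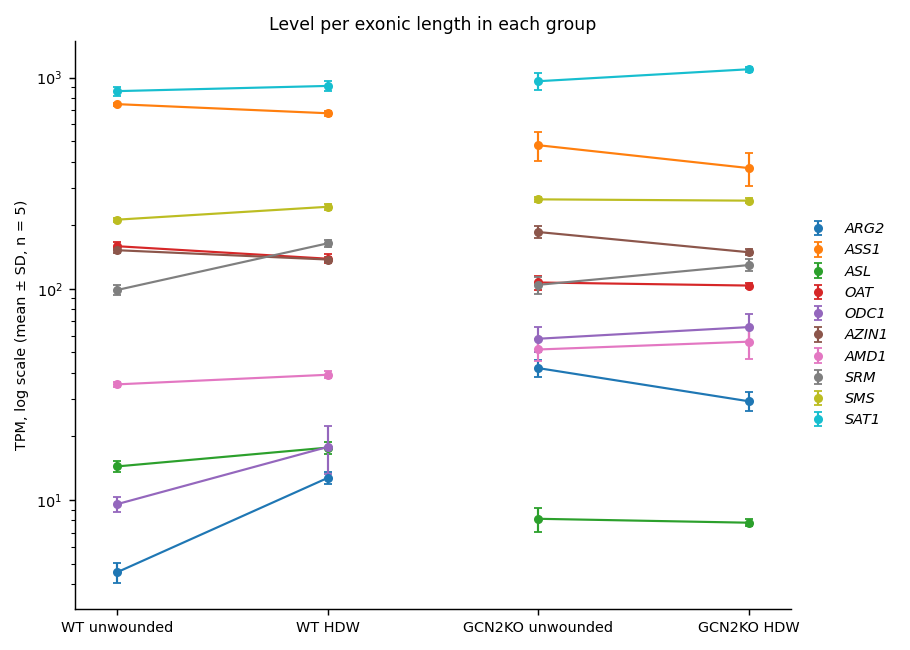
Level of the 10 genes in TPM on a log axis in each group, as mean and SD of 5 replicates, with lines joining the unwounded and HDW groups of one genotype. ODC1 and ARG2 are at the bottom in WT unwounded, at 9.56 and 4.55 TPM, and ASL is at the bottom in both GCN2KO groups.

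The other genes of the pathway were described from 6 lists of 58 genes in all, of which 46 or 47 were tested in each comparison. ARG1, the liver arginase, and NOS1, NOS2 and OTC had at most 3 counts in any library and were not tested. Counts in these lists are of genes past the adjusted p alone. Between unwounded genotypes 16 of 46 were higher in GCN2KO and 16 lower, near the 33.4% and 33.1% over all genes, with a median of −0.0085 against 0.0042. After HDW 11 were higher and 23 lower, beside 35.9% and 35.8%, with a median of −0.18 against 0.0020. HDW raised 24 of 46 in WT and lowered 7, beside 26.1% and 25.2% of all genes, with a median of 0.19 against −0.0024. In GCN2KO it raised 5 and lowered 4, beside 11.9% and 10.8%, and 37 did not pass. For the interaction, 4 of 47 were higher in GCN2KO and 14 lower, beside 11.2% and 12.5%, with a median of −0.19 against −0.0090.

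Around arginine itself, 12 of 17 genes of the urea cycle and nitric oxide list were tested between genotypes, with 4 higher and 4 lower in GCN2KO unwounded (33.4% and 33.1% of all genes) and 3 higher and 6 lower after HDW (35.9% and 35.8%). GAMT, which uses arginine-derived guanidinoacetate to make creatine, fell from 256 ± 36.2 normalized read counts in WT unwounded to 25.3 ± 3.4 in GCN2KO unwounded, 9.97-fold lower (adjusted p = 2.23e-11), and was 12.4-fold lower after HDW (adjusted p = 1.01e-09). DDAH1, which clears methylarginines that inhibit nitric oxide synthases, was 3.60-fold higher unwounded (adjusted p = 8.40e-10) and 2.08-fold higher after HDW (adjusted p = 1.56e-07). It rose with HDW in both genotypes, by 1.39 in WT and 0.61 in GCN2KO on the log2 scale. NAGS, which makes the activator of the urea cycle, was lower by −1.55 and −1.80, and CASTOR1, the cytosolic arginine sensor of mTORC1, by −1.31 unwounded and −0.73 after HDW, all at low counts. NOS3 had 0 to 6 counts in WT libraries and 10 to 32 in GCN2KO libraries, too few in WT for a fold.

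Where ornithine meets proline and glutamate, 5 of 6 genes were tested between genotypes. Of these, 2 were higher and 1 lower unwounded, beside 33.4% and 33.1% of all genes. After HDW 0 were higher and 3 lower in GCN2KO, beside 35.9% and 35.8%. PYCR1, a mitochondrial pyrroline-5-carboxylate reductase that makes proline, was 2.44-fold higher in GCN2KO unwounded (adjusted p = 2.27e-08), rose 2.12-fold with HDW in WT (adjusted p = 1.21e-06), and had −0.09 with HDW in GCN2KO (adjusted p = 0.320). After HDW, PYCR1 had 2237 ± 323 normalized read counts in WT and 2370 ± 139 in GCN2KO (SD, n = 5). PYCR3, the cytosolic reductase that takes ornithine-derived pyrroline-5-carboxylate, was lower in GCN2KO in both states. Its log2 differences were −1.44 unwounded and −1.98 after HDW (adjusted p = 1.57e-07 and 9.63e-10).

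On the list of cationic amino acid transporters, which also takes in carriers of neutral amino acids such as SLC7A5, 7 of 11 genes were tested. Of these, 4 were higher and 0 lower in GCN2KO unwounded, and 6 higher and 0 lower with HDW in WT. In both comparisons 0 were lower also by DESeq2 and at an unadjusted p under 0.05 in edgeR. Between wounded genotypes 3 were higher and 1 lower in GCN2KO, and 1 was higher with HDW in GCN2KO. Over all genes, 33.4% were higher and 33.1% lower between unwounded genotypes, and 35.9% and 35.8% between wounded genotypes. The shares were 26.1% and 25.2% with HDW in WT, and 11.9% were higher with HDW in GCN2KO. The transcript of SLC3A2, the heavy chain of several amino acid exchangers, was 2.37-fold higher in GCN2KO unwounded (adjusted p = 7.51e-09). By immunoblot, the study reported less SLC3A2 protein in GCN2KO cells, wounded or not. SLC6A14, a carrier of neutral and cationic amino acids, rose 2.73-fold with HDW in WT (adjusted p = 5.81e-08). The interaction of SLC6A14 was −1.23 (adjusted p = 7.72e-05).

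Among 9 of 10 tested genes for antizymes, polyamine catabolism and transport, 1 was higher and 5 lower in GCN2KO unwounded and 1 higher and 7 lower after HDW, none by the fold of a DE gene, where 33.4% and 33.1% of all genes were higher and lower unwounded and 35.9% and 35.8% after HDW. Of 9 of 10 tested genes of the methionine cycle and salvage, 4 were higher and 5 lower unwounded, beside the same 33.4% and 33.1%. GOT1, an aspartate aminotransferase, was 5.08-fold higher in GCN2KO unwounded (adjusted p = 2.16e-12) and rose 1.86-fold with HDW in WT, with an interaction of −1.12 (adjusted p = 1.67e-06). AHCY, which hydrolyses S-adenosylhomocysteine, was 2.19-fold lower in GCN2KO after HDW (adjusted p = 4.46e-08). On the hypusination list, whose product depends on spermidine, 4 of 4 were tested and 3 rose with HDW in WT, where 26.1% of all genes rose, among them EIF5A2, a target of hypusination, by 1.02 (adjusted p = 2.42e-06), with 0.03 in GCN2KO (adjusted p = 0.893).

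**Figure D5:**
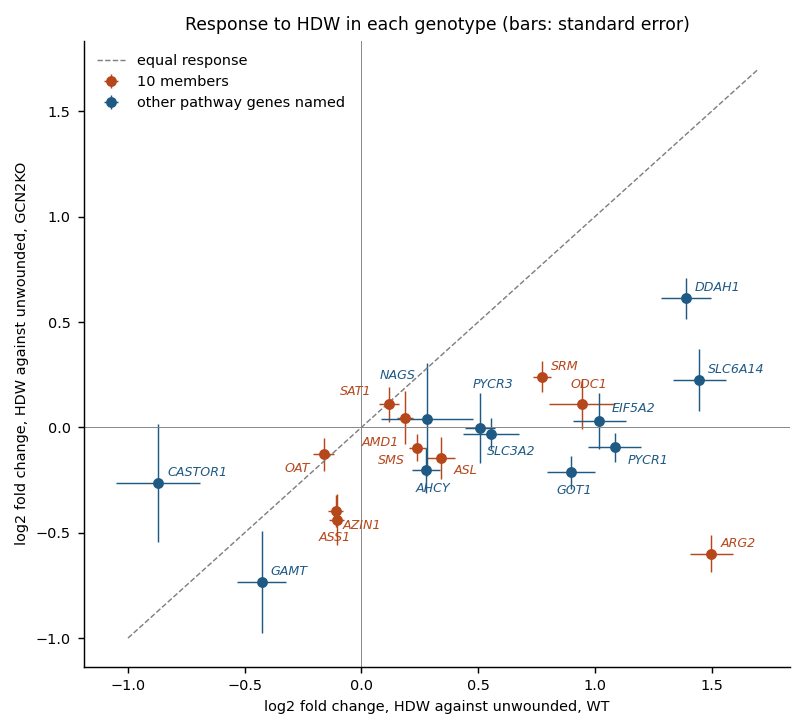
log2 fold change with HDW in WT (horizontal axis) and in GCN2KO (vertical axis) for the 10 members and 11 other pathway genes, with standard errors as bars and a dashed line of equal response. ARG2 lies at 1.499 and −0.60, and ODC1, SRM, PYCR1, GOT1 and EIF5A2 lie well to the right of 0, at 0.11, 0.24, −0.09, −0.21 and 0.03 on the vertical axis.

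The genes whose log2 normalized counts ran most like those of a member over the 20 libraries were sought among 16535 others, for the 3 members with the smallest interaction p. For ARG2 they were CEBPG (Pearson r = 0.99), TARS1, PRSS3, DESI2 and UBE2J1, the last at 0.98. For SRM they were COTL1 (r = 0.98), PEA15, ADAM8, DUSP4 and SLC29A1 (0.95), and for SMS they were RAP1GDS1 (r = 0.96), RDH11, EIF2S2, ZFAND1 and MRPS6 (0.94). These libraries fall into 4 groups, so the points are not independent and no p is given.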

How the data were processed

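Total RNA of 20 libraries was sequenced by the authors as paired reads. Per the study's methods, reads were trimmed with Trimmomatic, aligned to GRCh38 with STAR, and uniquely mapped reads in exons were counted with featureCounts. The annotation release and strand setting are not given in the sources used here. The deposited values are raw read counts per gene. No column of per-sample values was left unused. Symbols, exonic lengths and overlaps came from GENCODE release 44, which held 56410 of the 57500 identifiers.

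Each comparison of 5 against 5 libraries was fitted over all genes with edgeR 4.0.16 (R 4.3.3; filterByExpr with a minimum count of 10, TMM scaling, quasi-likelihood test), without a replicate block, and p was adjusted by the Benjamini-Hochberg method over all genes tested. A DE gene met both thresholds, an absolute log2 fold change of 1 or more and an adjusted p no higher than 0.05; the study used the same thresholds. Normalized counts were scaled by TMM, and TPM used the union of annotated exons. Count ratios (pseudocount 0.5) were tested by exact permutation. The scripts were tested on simulated data. Alternatives were DESeq2 1.42.0, other scalings, no filter, 1 fit of all libraries, the replicate block, thinning to 14083504 counts, and leaving out each library.

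The members and all lists were chosen with earlier results of these data known. All members, EIF2AK4 and VTI1B were named, and of the pathway lists the genes that were DE genes in any comparison, at most 6 a list. The labels number 5 replicates in each group and say nothing of separate cultures, so p-values measure the spread between these samples, which may be technical. The labels also name no separately edited pools. Loss of GCN2 and any other difference between the edited pool and the WT cells therefore cannot be told apart. Same-numbered replicates did not deviate together (mean correlation −0.0921 to 0.0358), so numbers were not taken as pairs.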

Additional observations from a re-analysis of the deposited data

Results flagged for a closer look

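In 40 groups of 5 libraries tested for a value far from the rest, of which chance marks about 1 in 20, 3 values stood out. ARG2 in WT HDW replicate 4 was the highest of its group at 229.32 normalized counts, OAT in WT HDW replicate 2 the lowest at 2994.69, and AMD1 in GCN2KO HDW replicate 5 the lowest at 2742.77.

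The response to HDW differed between genotypes for 6 members. The GCN2KO response minus the WT response, on the log2 scale, was −2.11 for ARG2, −0.50 for ASL, −0.85 for ODC1, −0.54 for SRM, −0.35 for SMS and −0.30 for AZIN1. Of the other pathway genes it was −0.79 for DDAH1, −0.53 for PYCR3, −1.20 for PYCR1, −0.60 for SLC3A2, −1.23 for SLC6A14, −1.12 for GOT1, −0.50 for AHCY and −1.003 for EIF5A2, in each case past the adjusted p of edgeR's quasi-likelihood test. The value of PYCR3 had an adjusted p of 0.0519 without GCN2KO unwounded replicate 1 or GCN2KO HDW replicate 5, 0.0800 without GCN2KO unwounded replicate 3, 0.0546 without GCN2KO HDW replicate 2 and 0.0927 without both GCN2KO unwounded replicate 1 and GCN2KO HDW replicate 5.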

How the results depend on the processing

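Without a filter on low counts the DE genes among all genes numbered 3920 and 3681 between genotypes (unwounded, HDW) and 998 and 199 with HDW (WT, GCN2KO). In 1 fit of all 20 libraries, 5 members were called with HDW in WT and 5576 genes with HDW in GCN2KO, and with thinned counts 62 genes were DE genes with HDW in GCN2KO. With the replicate block, 2121 genes were called with HDW in GCN2KO, SRM lost its call there (0.24, adjusted p = 0.0670), and 0 of the 24 count ratios could pass because the smallest sign-flip p is 0.0625. Of the other named genes, VTI1B with HDW in WT (0.08, adjusted p = 0.0565) and GAMT with HDW in GCN2KO (−0.77, adjusted p = 0.0656) lost theirs, and the block changed no other call. Leaving out 1 library gave 1 to 2 members that were DE genes with HDW in WT, and with HDW in GCN2KO 2 to 4 members and 2070 to 4517 genes past the adjusted p, with the fewest genes without GCN2KO unwounded replicate 5 (2217) or GCN2KO HDW replicates 2 (2137) and 3 (2070).

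Signs turned only for values that had not passed, as ranges over leaving out 1 library. With HDW in GCN2KO these were −0.0224 to 0.152 for AMD1 and −0.0610 to 0.0020 for EIF2AK4. For the interaction they were −0.0224 to 0.0846 for OAT, −0.0715 to 0.0408 for SAT1 (0.0444 with library size alone) and −0.0192 to 0.0508 for EIF2AK4 (−0.0335 with thinned counts). The ODC1 to SAT1 ratio with HDW in GCN2KO ran from −0.0871 to 0.0806, and was 0.0068 without both GCN2KO unwounded replicate 1 and GCN2KO HDW replicate 5, an alternative chosen after the data were seen. The cause of each change was not tested. With counts thinned to the smallest library total, SRM between unwounded genotypes (adjusted p = 0.0771), VTI1B with HDW in WT (adjusted p = 0.0996) and GAMT with HDW in GCN2KO (adjusted p = 0.0518) lost their calls, and no ARG2 call changed.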
